A study of Mus musculus with 6 samples.

Results

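The genes described here mark B cells and the antibody-secreting plasma cells that B cells become. They were chosen as a fixed list of 9 names, of which 7 have a row among the 12792 rows of the expression table. They are *Jchain* and *Mzb1* for plasma cells, *Cd79a*, *Cd79b* and *Cd22* for the B cell surface, the adaptor *Blnk* and the transcriptional coactivator *Pou2af1*. The other listed names, *Ms4a1* and *Pax5*, are not analysed here. The genes were chosen by name with their ratios in the libraries labelled KO and WT already known, so the difference between the groups in these genes is given as a description, without a test.

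A B cell carries its antibody on the surface as a receptor, and the chains encoded by *Cd79a* and *Cd79b* pass the signal inward, with *Cd22* holding it back and *Blnk* linking the first kinases to what follows. When a B cell turns into a plasma cell it gives up much of this receptor apparatus and secretes antibody. *Jchain* encodes the joining chain that links secreted IgA and IgM units into polymers, and *Mzb1* encodes an endoplasmic reticulum protein that helps antibody chains to be assembled and released. In mice the factor encoded by *Pax5* holds B cell identity in place and keeps *Jchain* low until plasma cell differentiation. A liver receives B cells with the blood, and polymeric IgA can pass through it into bile.

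RNA sequencing of polyadenylated RNA was done on liver from mice with tumours grown from Hepa 1-6, a mouse hepatoma line. The labels give 3 libraries of genotype AKR1D1KO (labelled KO) and 3 of wild type (labelled WT), all from the same tumour model. *Akr1d1* encodes a reductase that acts in bile acid synthesis and steroid clearance. Strain, sex, age, the part of the liver taken and the part of the gene targeted are not given, and no label ties a library to an animal of its own. A p-value here therefore reflects only how these samples vary, which may be technical. A value is read as how strongly a gene was expressed in a library relative to that gene's own mean over 7 libraries. The expression table holds columns for 6 libraries only. Values therefore compare libraries for 1 gene and not genes with each other. The level of *Akr1d1* goes against the labels: the libraries labelled KO had a mean of 1.26 ± 0.0787, against 0.801 ± 0.0944 in those labelled WT (SD, n = 3 each). All directions here are between libraries as labelled. The total number of reads is unknown. Relative depth, estimated from rows with few reads, ranged 1.24-fold over the 6 libraries. Of 12578 rows tested, 2 were higher in the libraries labelled KO and 0 were lower by limma at an adjusted p under 0.05, or 0.0159% and 0.0%, while 6.5% of rows were higher and 5.53% lower at an unadjusted p under 0.05. Neither of the 2 is a B cell or plasma cell gene of the lists used here.

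An octamer is the site that the product of *Pou2af1* acts on together with Oct factors. Promoter sequences are shown for the gene that differed most between the groups and for a receptor chain that did not set them apart. The sequences also include that of the gene whose window, among those examined, holds an octamer. They are the 250 bases before the RefSeq transcription start, build GRCm38.p6, written 5′ to 3′ along the gene's strand, with an octamer (ATGCAAAT, either strand) in capitals.
*Jchain*, chr5:88527898-88528147, minus strand: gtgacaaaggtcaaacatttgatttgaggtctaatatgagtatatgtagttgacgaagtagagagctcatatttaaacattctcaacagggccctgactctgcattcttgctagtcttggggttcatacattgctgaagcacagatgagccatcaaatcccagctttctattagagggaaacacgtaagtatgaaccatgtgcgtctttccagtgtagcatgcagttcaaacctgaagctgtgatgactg
*Cd79a*, chr7:24897247-24897496, plus strand: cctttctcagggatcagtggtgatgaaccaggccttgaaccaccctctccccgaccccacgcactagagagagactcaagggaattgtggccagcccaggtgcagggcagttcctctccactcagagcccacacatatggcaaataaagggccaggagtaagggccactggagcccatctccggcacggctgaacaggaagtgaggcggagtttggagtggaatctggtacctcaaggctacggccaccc
*Blnk*, chr19:40994222-40994471, minus strand: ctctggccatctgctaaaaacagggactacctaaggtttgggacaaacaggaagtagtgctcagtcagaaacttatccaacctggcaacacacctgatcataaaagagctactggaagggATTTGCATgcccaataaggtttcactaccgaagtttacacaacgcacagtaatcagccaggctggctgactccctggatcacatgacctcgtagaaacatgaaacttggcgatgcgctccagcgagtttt
Windows were found for 6 of the 9 names, and 1 of them, that of *Blnk*, holds the octamer, 130 to 123 bases before the start on the opposite strand. Of 32851 promoter windows of this length in the RefSeq table, 526 (1.6%) hold it. A match is only a run of letters, and none in a window says nothing about the factor.

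Of the genes with a row, *Jchain* differed most between the groups. It had ratios of 2.13, 2.53 and 0.955 in KO replicates 1 to 3, against 0.191, 0.214 and 0.362 in WT replicates 1 to 3. Every library labelled KO lay above every library labelled WT, and the lowest KO library, replicate 3, stood well apart from the other KO libraries. The means were 1.87 ± 0.818 in the libraries labelled KO and 0.256 ± 0.0928 in those labelled WT (SD, n = 3 each), a 7.32-fold higher mean, with a log2 change of 2.40 (SE 0.38) on the log2(ratio + 0.1) scale. The gene lies on chromosome 5 at 88519809 to 88527891, minus strand (mm10, GENCODE M21), and no other annotated gene overlaps it.

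The *Jchain* ratios match small numbers of reads. The deposited ratios can be written as whole reads once the worth of a read in each library is known, and the smallest numbers that give the *Jchain* ratios are 24, 28 and 11 reads in KO replicates 1 to 3, against 2, 2 and 4 in WT replicates 1 to 3, within 0.0322 of a read. Summed over each group, these smallest numbers make 63 reads in the libraries labelled KO and 8 in those labelled WT. A multiple of these numbers would give the same ratios, and some matches of this kind can be chance. Of 12603 rows, 789 (6.26%) could be written with at most 50 reads within 0.06 of a read. That share is not a rate of chance matches, which was not estimated.

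*Mzb1*, the other plasma cell gene, did not separate the groups. Its ratios were 1.57, 1.01 and 1.38 in KO replicates 1 to 3, against 0.762, 1.54 and 0.289 in WT replicates 1 to 3. WT replicate 2 lay above KO replicates 2 and 3, while WT replicate 3 was the lowest of all libraries. The means were 1.32 ± 0.284 and 0.863 ± 0.631 in the libraries labelled KO and WT (SD, n = 3 each), a ratio of 1.53, with a log2 change of 0.77 (SE 0.52). Without WT replicate 3 that change was 0.24, and without WT replicate 2 it was 1.27. The smallest whole reads for *Mzb1* are 11, 7 and 10 in the KO replicates, against 5, 9 and 2 in the WT replicates, and if these are the reads behind it, a single read moves its ratio by a large step. The gene lies on chromosome 18 at 35647267 to 35649367, minus strand, where the annotation places the gene *SPATA24* over it on the same strand, so its reads may be shared.

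The plasma cell genes therefore did not rank the libraries alike. *Jchain* divided by *Mzb1*, each as a ratio to its own mean, was 1.36, 2.50 and 0.692 in KO replicates 1 to 3, against 0.250, 0.139 and 1.25 in WT replicates 1 to 3. WT replicate 3 exceeded KO replicate 3 in this quotient, so the groups overlapped.

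**Figure D1:**
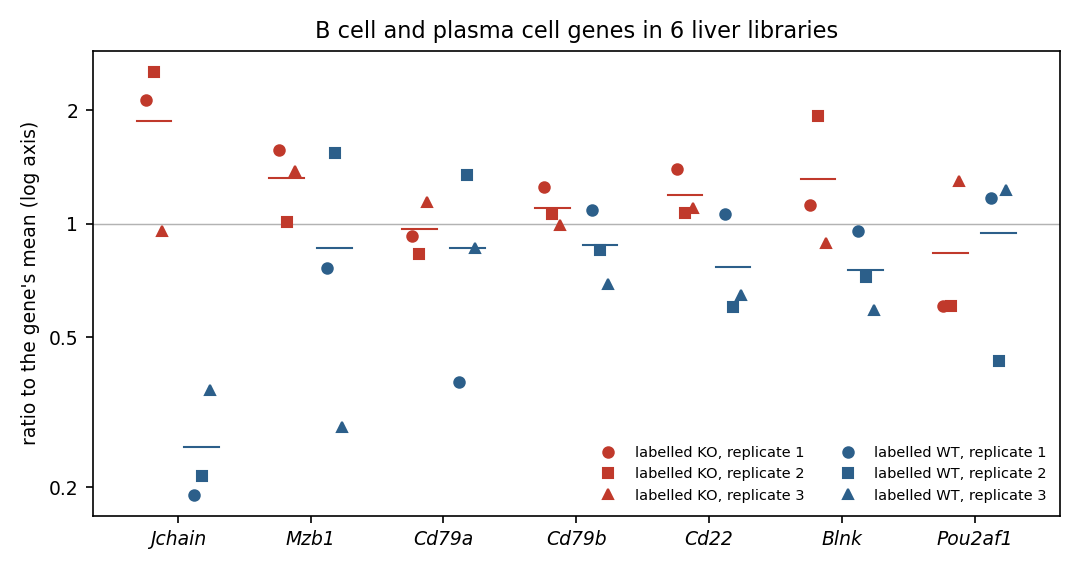
Ratio of each gene to its own mean (log axis) in the 3 libraries labelled KO (red) and the 3 labelled WT (blue), with a horizontal line at each group's mean and a symbol for each replicate number. *Jchain* and *Cd22* are the genes whose groups do not overlap, and the *Jchain* groups lie furthest apart.

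Of the B cell surface genes, *Cd22*, a sialic acid-binding receptor that dampens receptor signalling, was the one whose groups did not overlap. It had ratios of 1.40, 1.07 and 1.10 in KO replicates 1 to 3, against 1.06, 0.601 and 0.646 in WT replicates 1 to 3. WT replicate 1 came within a small margin of KO replicate 2. The means were 1.19 ± 0.181 and 0.768 ± 0.252 in the libraries labelled KO and WT (SD, n = 3 each), a ratio of 1.55 with a log2 change of 0.60 (SE 0.22). *Cd22* lies on chromosome 7 at 30865402 to 30880342, minus strand, with the antisense gene *Gm29439* over it, and no source used here says whether counting took account of strand.

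The receptor chains differed less. *Cd79a* had ratios of 0.928, 0.830 and 1.14 in KO replicates 1 to 3, against 0.380, 1.35 and 0.860 in WT replicates 1 to 3. Its highest and its lowest library were both labelled WT, the ratio of means was 1.12, and the log2 change of 0.28 (SE 0.40) became -0.15 without WT replicate 1. *Cd79b* had ratios of 1.25, 1.06 and 0.993 in KO replicates 1 to 3, against 1.09, 0.853 and 0.692 in WT replicates 1 to 3. Here WT replicate 1 lay between the KO libraries, the ratio of means was 1.25 and the log2 change was 0.31 (SE 0.17), or 0.17 without WT replicate 3.

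Whole reads could be matched to both receptor chains, again as smallest numbers. For *Cd79a* (chromosome 7, 24897381 to 24902197, plus strand) the smallest whole reads are 34, 30 and 43 in the KO replicates, against 13, 41 and 31 in the WT replicates. For *Cd79b* (chromosome 11, 106311341 to 106314762, minus strand) they are 44, 37 and 36 in the KO replicates, against 36, 25 and 24 in the WT replicates. Summed, the smallest numbers are 107 and 85 reads for *Cd79a* and 117 and 85 reads for *Cd79b* in the libraries labelled KO and WT. No such whole numbers up to 50 reads were found for *Cd22*, *Blnk* or *Pou2af1*.

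**Figure D2:**
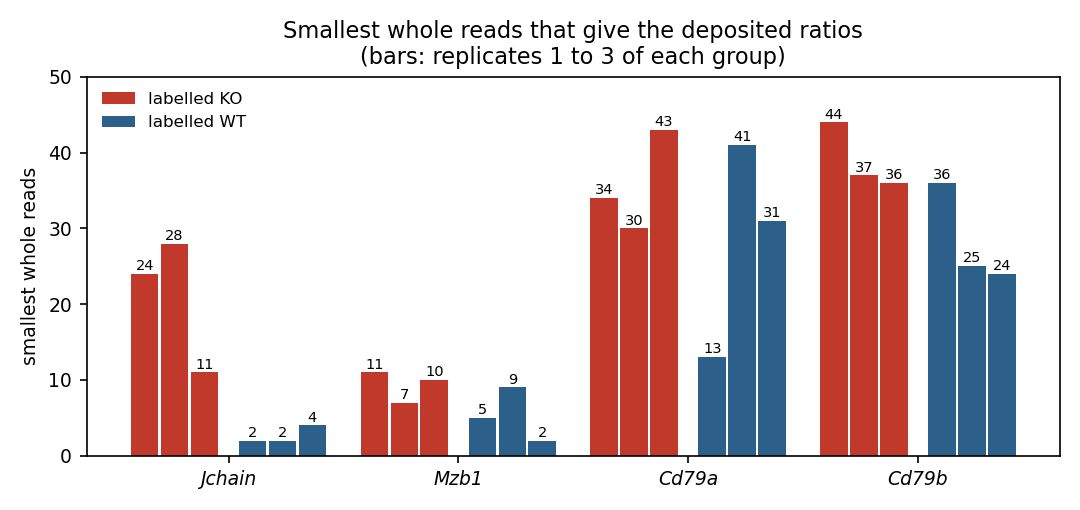
Smallest whole reads that give the deposited ratios (vertical axis) for the 4 genes where such numbers were found, with bars for replicates 1 to 3 of the libraries labelled KO (red) and labelled WT (blue). *Jchain* has smallest numbers of 11 to 28 in the KO libraries and 2 to 4 in the WT libraries, while the bars of the other 3 genes overlap between the groups.

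*Blnk*, the adaptor that links the kinase Syk to Btk and phospholipase C gamma, had ratios of 1.12, 1.93 and 0.888 in KO replicates 1 to 3, against 0.954, 0.723 and 0.590 in WT replicates 1 to 3. KO replicate 2 was far above the rest and KO replicate 3 lay under WT replicate 1. The ratio of means was 1.74 and the log2 change 0.68 (SE 0.30), or 0.38 without KO replicate 2. *Blnk* lies on chromosome 19 at 40928927 to 40994535, minus strand.

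*Pou2af1*, the coactivator of octamer-dependent transcription that B cells and plasma cells share, did not follow *Jchain*. Its ratios were 0.605, 0.604 and 1.30 in KO replicates 1 to 3, against 1.17, 0.431 and 1.23 in WT replicates 1 to 3. The KO libraries that were highest in *Jchain*, replicates 1 and 2, were among the lowest in *Pou2af1*, and KO replicate 3 was the highest. The ratio of means was 0.886, and the log2 change of -0.12 (SE 0.45) ranged from -0.55 to 0.11 when single libraries were left out. *Pou2af1* lies on chromosome 9 at 51213708 to 51240080, plus strand, with the intronic transcript *Gm47828* inside it.

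In all, 6 of the 7 genes had a positive log2 change, with a median of 0.60, against a median of 0.00 over all 12578 rows tested. The groups did not overlap in 2 of the 7, both with the KO libraries above, where 8.86% of all rows had every KO library above every WT library and 10.1% had every one below. As the genes were chosen with these values known, nothing is read from those counts. In bulk tissue, fewer cells of a type and less RNA per cell cannot be told apart.

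Set against each other, the plasma cell genes lay higher relative to the B cell surface genes in the libraries labelled KO. The mean log2 level of *Jchain* and *Mzb1* minus that of *Cd79a*, *Cd79b* and *Cd22* was 0.60, 0.66 and 0.09 in KO replicates 1 to 3, against -0.80, -0.46 and -0.96 in WT replicates 1 to 3. The groups did not overlap, and KO replicate 3 was the KO library nearest to the WT libraries. The means were 0.45 ± 0.32 and -0.74 ± 0.26 in the libraries labelled KO and WT (SD, n = 3 each), a difference of 1.19 on the log2 scale.

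This balance turned on *Jchain*. With *Jchain* alone on the plasma cell side the difference was 2.00, and with *Mzb1* alone it was 0.38 and the groups overlapped. Taken by itself and centred over the 6 libraries, the plasma cell side differed by 1.59 between the groups and the B cell surface side by 0.40. The surface side stood at 0.32, 0.08 and 0.20 in KO replicates 1 to 3, against -0.23, -0.05 and -0.31 in WT replicates 1 to 3.

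**Figure D3:**
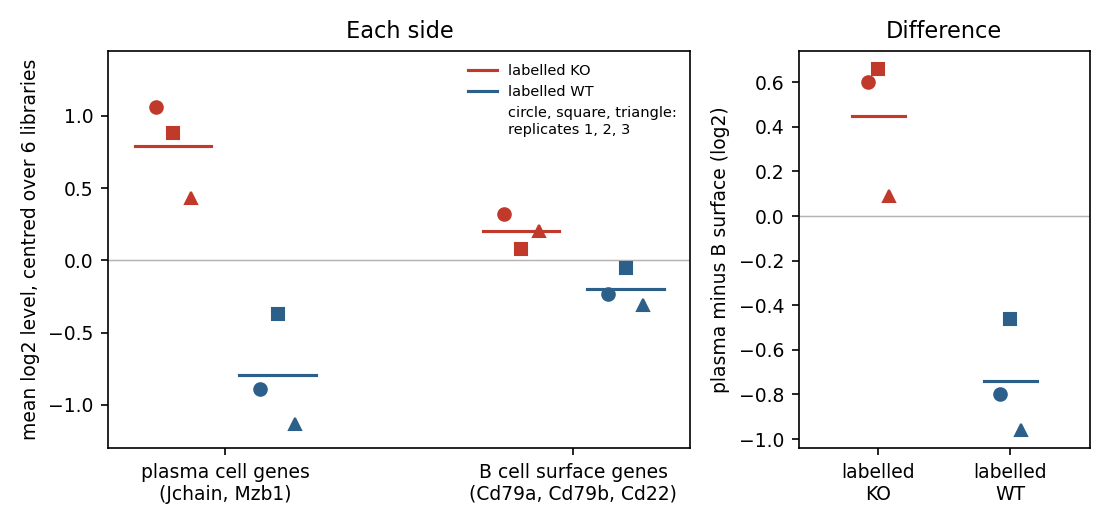
Left, mean log2 level of the plasma cell genes and of the B cell surface genes in each library, centred over the 6 libraries; right, the first minus the second, uncentred. Libraries labelled KO are red, those labelled WT blue, lines are group means, and the difference is 0.09 to 0.66 in the KO libraries and -0.96 to -0.46 in the WT libraries.

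Other genes of B cells did not move as a block. Of 23 listed B cell genes that are not among the 9 names, 17 could be tested, of which 9 had a positive and 8 a negative log2 change, with a median of 0.01. By limma 0 passed the threshold in either direction, and at an unadjusted p under 0.05 there was 1 higher and 1 lower. The groups did not overlap in 1 of them with KO above and in 3 with KO below. Over all rows, 6.5% were higher and 5.53% lower at that p, and 8.86% had KO above and 10.1% KO below without overlap. The mean ratio of the 17 genes was 0.834 to 1.10 in the libraries labelled KO and 0.980 to 1.03 in those labelled WT.

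The B cell genes with the smallest p pointed in different directions. *Ly6d*, a surface antigen used to mark B-lineage progenitors, had ratios of 1.56, 2.35 and 1.65 in KO replicates 1 to 3, against 0.428, 0.399 and 0.428 in WT replicates 1 to 3, with no overlap (log2 change 1.89, SE 0.16, limma adjusted p = 0.0809). *Fcrl1*, an Fc receptor-like protein of mature B cells, had ratios of 0.757, 0 and 0.246 in KO replicates 1 to 3, against 2.28, 1.67 and 1.11 in WT replicates 1 to 3 (log2 change -2.48, SE 0.78, limma adjusted p = 0.321). Its KO libraries all lay below its WT libraries, the opposite order to *Jchain*.

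*Cd72*, an inhibitory B cell receptor, had ratios of 0.828, 0.992 and 0.405 in KO replicates 1 to 3, against 1.25, 1.22 and 1.08 in WT replicates 1 to 3 (limma adjusted p = 0.441). The *Cd72* groups did not overlap, with KO below, and KO replicate 3 was the lowest library. *Vpreb3*, an immunoglobulin-associated protein of B-lineage cells named here after its values were seen, is listed at 0 in KO replicate 1 and matches smallest numbers of 1 and 1 reads in the other KO libraries, against 1, 3 and 2 reads in WT replicates 1 to 3.

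With *Cd72*, *Fcer2a* and *Fcmr* as the B cell side, a choice made after the values were seen, the plasma cell side stood 2.03 higher in the libraries labelled KO on the log2 scale, against 1.19 with the receptor genes. *Fcer2a* encodes the low-affinity IgE receptor and *Fcmr* the IgM Fc receptor. *Cd72*, *Fcer2a* and *Fcmr* each had a negative log2 change, at -0.68, -0.51 and -0.15, so this B cell side was itself lower in the libraries labelled KO. Their list of 17 tested genes had 9 positive and 8 negative changes. The size of the balance thus depended on which B cell genes stood for the B cells.

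Among other genes of receptor signalling and B-lineage transcription, positive log2 changes outnumbered negative ones, none past the threshold. Of 32 listed, 26 could be tested, 18 with a positive and 8 with a negative log2 change (median 0.09). The groups did not overlap in 3, all with KO above, where 8.86% of all rows had KO above. By limma 0 passed the threshold, and at an unadjusted p under 0.05 there were 2 higher and 0 lower. Over all rows, 6.5% were higher and 5.53% lower at that p, and nothing is read from these counts. Many of them, such as *Syk*, *Lyn* and *Spi1*, also act in myeloid cells. *Ikzf1*, the lymphoid transcription factor Ikaros, had the smallest p, with ratios of 1.05, 1.28 and 1.24 in KO replicates 1 to 3, against 0.771, 0.565 and 0.799 in WT replicates 1 to 3 (log2 change 0.68, limma adjusted p = 0.216).

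In *Ikzf1* the groups did not overlap. *Bank1*, a scaffold of B cell receptor signalling, had a ratio of means of 1.40, *Pik3cd*, the leukocyte phosphoinositide 3-kinase subunit, 1.27, and *Prkcb*, the protein kinase C beta, 1.54. The limma adjusted p was 0.368 for *Bank1*, 0.420 for *Pik3cd* and 0.484 for *Prkcb*.

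Other plasma cell genes did not follow *Jchain* as a block. Of 30 listed, 16 could be tested, 7 with a positive and 9 with a negative log2 change (median -0.01). By limma 0 passed the threshold, and at an unadjusted p under 0.05 there were 1 higher and 2 lower. The groups did not overlap in 1 of them with KO above and in 3 with KO below. Over all rows, 6.5% were higher and 5.53% lower at that p, and 8.86% had KO above and 10.1% KO below without overlap. The mean ratio of the 16 genes was 0.949 to 1.00 in the libraries labelled KO and 0.956 to 0.998 in those labelled WT. The immunoglobulin constant region genes, *Prdm1*, *Irf4* and *Tnfrsf17*, the closest markers of antibody-secreting cells, are not analysed here, and most tested genes of this list serve protein folding and secretion in hepatocytes too.

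Among these secretory genes *Xbp1*, the transcription factor that expands the secretory apparatus in plasma cells and also acts in hepatocytes, had ratios of 0.873, 0.972 and 0.794 in KO replicates 1 to 3, against 1.22, 1.27 and 0.975 in WT replicates 1 to 3. Its KO libraries all lay below its WT libraries, by a small margin at the nearest pair (log2 change -0.35, SE 0.13, limma adjusted p = 0.369). The endoplasmic reticulum proteins *Creld2* and *Txndc5* had ratios of means of 0.759 and 0.842, again with KO below in every library (limma adjusted p = 0.388 and 0.421). *Eaf2*, a transcription elongation factor found in plasma cells, had ratios of 1.29, 1.15 and 1.26 in KO replicates 1 to 3, against 1.04, 0.588 and 0.331 in WT replicates 1 to 3 (log2 change 0.94, SE 0.34, limma adjusted p = 0.373). Its KO libraries all lay above its WT libraries. The smallest reads that give the *Eaf2* ratios are 8, 7 and 8, against 6, 3 and 2.

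**Figure D4:**
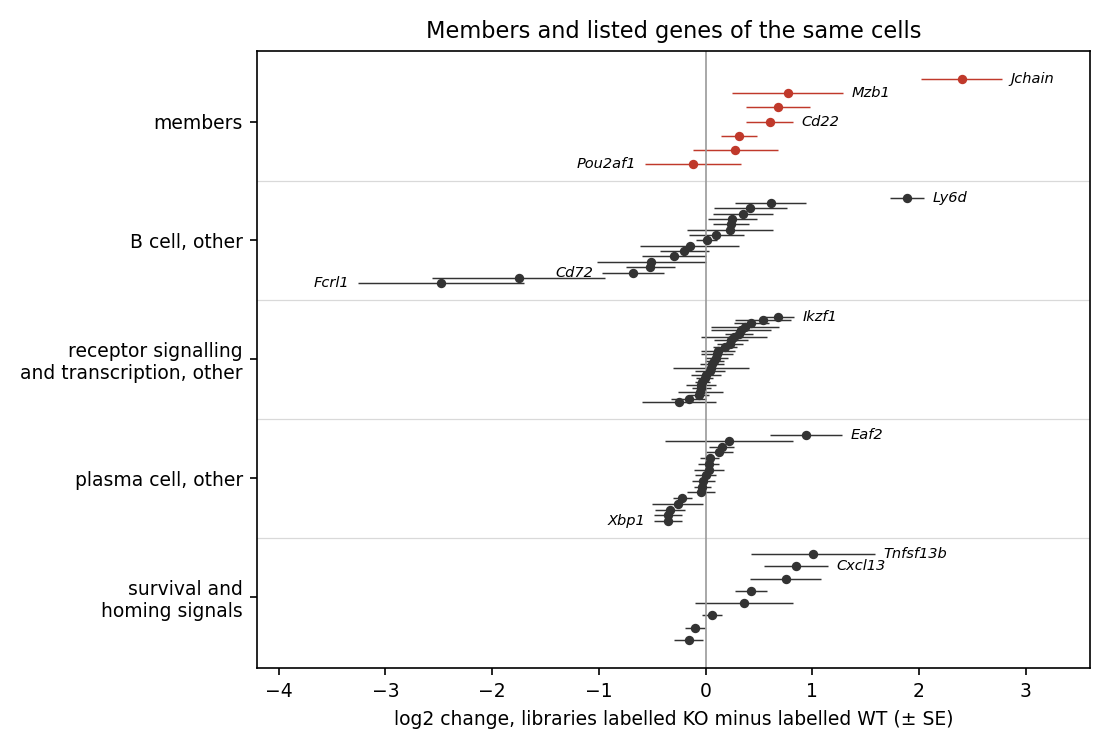
Log2 change between libraries labelled KO and labelled WT with its limma standard error (horizontal axis) for the 7 genes described (red) and for the other listed genes of B cells, of receptor signalling and transcription, of plasma cells and of B cell survival and homing (dark), each sorted within its group. *Jchain* (2.40) and *Ly6d* (1.89) lie furthest to the right and *Fcrl1* (-2.48) furthest to the left.

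Signals that attract and maintain B cells had mostly positive log2 changes, none past the threshold. Of 21 listed, 8 could be tested, 6 with a positive log2 change and 2 with a negative one (median 0.40). By limma 0 passed the threshold, and at an unadjusted p under 0.05 there were 2 higher and 0 lower. Over all rows, 6.5% were higher and 5.53% lower at that p. *Cxcl13*, the chemokine that draws B cells into follicles, had ratios of 1.46, 1.74 and 0.965 in KO replicates 1 to 3, against 0.496, 1.03 and 0.672 in WT replicates 1 to 3. KO replicate 3 lay just under WT replicate 2 (log2 change 0.85, SE 0.30, limma adjusted p = 0.364), and the smallest reads are 22, 26 and 15, against 7, 13 and 10.

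*Tnfsf13b*, which encodes the B cell survival factor BAFF, had ratios of 1.27, 0.803 and 1.08 in KO replicates 1 to 3, against 0.340, 0.191 and 1.29 in WT replicates 1 to 3 (limma adjusted p = 0.546). WT replicate 3 lay just above KO replicate 1. The smallest reads are 8, 5 and 7, against 2, 1 and 8, so those libraries match the same number. *Tnfrsf13b*, the gene of TACI, a receptor that binds BAFF, had a ratio of means of 1.68 (limma adjusted p = 0.453), with WT replicate 3 among the KO libraries. *Ltb*, the lymphotoxin subunit needed for lymphoid tissue, had a ratio of 1.40 without overlap (limma adjusted p = 0.367). *Pigr*, the epithelial receptor that carries polymeric immunoglobulin bound to the joining chain, was named after its values were seen. It had ratios of 1.03, 1.03 and 0.994 in KO replicates 1 to 3, against 0.965, 0.897 and 1.05 in WT replicates 1 to 3.

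Germinal centre genes could hardly be assessed, with 2 of 8 tested. *S1pr2* and *Fas* had ratios of means of 1.19 and 1.30, with overlapping groups (limma adjusted p = 0.445 and 0.518). Plasmacytoid dendritic cells can also express *Jchain* and *Blnk*, and of 10 listed markers of those cells 5 could be tested, with 3 positive and 2 negative log2 changes (median 0.08). Their mean ratio was 0.989 to 1.11 in the libraries labelled KO and 0.916 to 1.10 in those labelled WT. Among these markers limma put 0 past the threshold, and 1 was higher and 0 lower at an unadjusted p under 0.05. In 1 marker the groups did not overlap, with KO above. The shares of all rows were 6.5% higher and 5.53% lower at that p, and 8.86% with KO above.

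Marker lists of some other cells differed between the groups, and others overlapped. T cell markers had a mean ratio of 0.884 to 1.35 in the libraries labelled KO and 0.784 to 0.891 in those labelled WT, overlapping by a small margin, with 8 of 10 positive. Monocyte and macrophage markers stood at 1.07 to 1.25 in the libraries labelled KO and 0.793 to 0.953 in those labelled WT, with 10 of 11 positive, and hepatocyte markers at 0.942 to 0.956 and 1.01 to 1.11, with 8 of 10 negative. In the macrophage and hepatocyte lists the levels did not overlap between the groups. NK cell markers overlapped, at 0.910 to 1.29 in the libraries labelled KO and 0.652 to 1.49 in those labelled WT, as did granulocyte markers, at 0.847 to 1.44 and 0.751 to 1.13, and endothelial markers, at 0.947 to 1.10 and 0.877 to 1.03. The erythroid list had 1 gene tested. In these lists 0 genes were listed at 0 in any library. By limma 0 passed the threshold. At an unadjusted p under 0.05 there were 4 higher T cell markers, 4 higher macrophage markers and 1 lower hepatocyte marker. NK cells, granulocytes, endothelial and erythroid cells had 1 higher marker each. Over all rows, 6.5% were higher and 5.53% lower at that p. The part of these cell types in the *Jchain* difference was not tested.

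The genes whose pattern over the 6 libraries was most like the plasma cell mean, among 1884 uniquely named rows with a log2 range of at least 1, were *Lad1* (Pearson r = 0.9836), *Cenpm* (0.9783), *Mup6* (0.9753), *Gtse1* (0.9731) and *Ctcfl* (0.9701). Most like the mean of the surface genes were *Cd2* (0.9897), a surface receptor of T and NK cells, then *Sema3b* (0.9816), *Agpat9* (0.9765), *Dfna5* (0.9762) and *Adgrv1* (0.9683). These values describe likeness over 6 libraries that share their 2 groups. In each of these genes the groups did not overlap, with KO above. Both means already set the groups apart in that direction, so the choice by likeness largely fixed this beforehand.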

How the data were processed

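Liver RNA of 6 libraries is given in a table of 12792 named rows. The deposited values are read as a ratio of the gene's expression to its mean over 7 libraries, because no value or row sum exceeds 7 and 99 rows sum to 7 within 1e-09. The table itself states no unit. Per the submitters' processing notes, STAR 2.10, R 4.0.5 and mm10 are listed with no step assigned to them. The sources used here do not name the counter, the annotation or the scaling of libraries.

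Rows without values (189) were left out, and 12578 rows above 0 in at least 3 libraries were tested with limma 3.58.1 (R 4.3.3) on log2(ratio + 0.1), without a mean trend, with Benjamini-Hochberg adjustment over all rows and a threshold of 0.05. A log2 change on this scale understates that of low values. Gene positions are GENCODE M21 (mm10). The members, lists, unit and test were chosen with earlier results of these data known.

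The worth of a read in each library came from ratios between libraries in rows holding a 0, of which 10.5% to 24.7% fell on a quotient of whole numbers up to 6 with a tolerance of 0.002 (log2). It was refined on rows of at most 12 reads that fitted within 0.05 of a read. The limits of 50 reads and 0.06 of a read were set after the values were seen.

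From each list of B cell genes the 4 genes with the smallest p are named, with any past the threshold; 1 of those genes is left out of the text. For lists of other cells counts are given, since no result turns on single genes there. *Bcl6* stands in more than 1 row and was left out of its list. Alternatives were other pseudocounts, filters, scalings and weights, leaving out each library and a replicate block.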

Additional observations from a re-analysis of the deposited data

How the results depend on the processing

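The 17 genes outside the list of 9 that the rule named kept their direction in the alternatives that gave a value (up to 15 each), and 0 passed the threshold in any. The number of rows past the limma threshold, 2, was 1 with a pseudocount of 1, 1 with the replicate block, 0 with a mean trend (1573 at an unadjusted p under 0.05), 0 with only rows above 0 in all 6 libraries and no pseudocount (1495), and 0 to 4 when single libraries were left out: 0 without KO replicate 1, 2 or 3, 1 without WT replicate 2 and 4 without WT replicate 3. With a pseudocount of 1, which compresses ratios, the log2 change of *Jchain* was 1.15 and the plasma minus surface difference 0.56. Without single libraries *Jchain* ranged from 2.14 to 2.80 and the difference from 1.08 to 1.37. The difference also moved with the genes on each side, choices made after seeing the data: 2.00 with *Jchain* alone, 0.38 with *Mzb1* alone, 0.62 with *Pou2af1* added to the plasma cell side, and 2.03 with *Cd72*, *Fcer2a* and *Fcmr* as the B cell side. Deviations from the group means correlated across genes at -0.0207, -0.00198 and 0.089 for same-numbered libraries of the groups. For libraries with different numbers the correlations ran from -0.0769 to 0.0817, so the pair of replicates 3 was the highest. A correlation across all genes cannot show a batch that touches only some of them, and such a batch was not tested. The replicate block changed none of the calls of named genes. Total depth is unknown; if the smallest matching reads are the true ones, counting error limits *Mzb1* (2 to 11 per library) and *Jchain* in the libraries labelled WT (2 to 4).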
